A study of Mus musculus with 12 samples.

Results

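The visual cycle genes were taken as the 10 rows of the deposited table whose gene symbol is *Rpe65*, *Lrat*, *Rdh5*, *Rdh8*, *Rdh10*, *Rdh11*, *Rdh12*, *Rbp3*, *Rlbp1* or *Stra6*, of 56748 genes in the table. All 10 passed the filters on low values in every comparison. Light isomerises the retinal bound to opsin from the cis to the all-trans form, and the visual cycle turns it back. Photoreceptors reduce all-trans-retinal to retinol, the retinal pigment epithelium (RPE) esterifies it, isomerises it and oxidises it to the cis aldehyde, and carrier proteins hold the retinoids in and between these cells. Müller glia hold some of the same enzymes and carriers, and are thought to supply cones.

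RNA was sequenced from the retinas of littermate mice that all carried Ribo-Tag on both alleles and Cre under a rod-specific promoter (i75-Rod-Cre), so that Cre, the HA tag on ribosomes and the *Pkm2* deletion were directed to rods. Control mice (RiboTag;Pkm2fl/+;i75-Rod-Cre, designated WT in the study) had 1 floxed *Pkm2* allele, and *Pkm2* Rodko mice (RiboTag;Pkm2fl/fl;i75-Rod-Cre) had both alleles floxed. The control is therefore a heterozygote with Cre, and no group without Cre was analysed here. RNA bound to HA-tagged polyribosomes (Rod-TRAP, called rods) and RNA of the total tissue lysate (called retina) gave 4 groups of 3 libraries, 12 in all. The description of the series gives the age as 2 weeks, while the methods of the study give it as 2 months. The labels number the libraries of a group and do not say that they came from separate animals, so the p-values measure the spread between these libraries, which may be technical in part. The libraries held 13458890 to 22790074 reads on genes. *Pkm*, the targeted gene, was lower in every Rodko library of both fractions, at 1565 to 1689 CPM (read counts scaled to library size) in Rodko rods against 3606 to 3895 in control rods, and at 940.4 to 971.0 in Rodko retina against 1474 to 1601 in control retina. All 19 rod markers tested were higher in rods than in retina in both genotypes.

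The promoters of 4 members, 1 for each kind of cell or role that the results separate, are shown as the 250 bases before the RefSeq transcription start. The sequences are from the RefSeq table for GRCm38.p6, which matched 9 of the 10 members (all but *Rdh10*), and run 5′ to 3′ on the strand of the gene. Capitals mark TAATCC or its reverse complement GGATTA, the core letters bound by the homeodomain factors CRX and OTX2 of photoreceptors and RPE. *Rpe65* and *Rbp3* each held 1 match, 42 and 69 bases before the start as counted to the first base of the match. The other 7 matched members held none in any of their windows. Some members have more than 1 start, and 2 of the 13 windows of the 9 members held a match. Of 32851 RefSeq promoter windows of the same length, 6.25% held at least 1. These are matches of letters, and binding was not measured here.
*Rbp3*, chr14:33953753-33954002, plus strand, carrier made by photoreceptors: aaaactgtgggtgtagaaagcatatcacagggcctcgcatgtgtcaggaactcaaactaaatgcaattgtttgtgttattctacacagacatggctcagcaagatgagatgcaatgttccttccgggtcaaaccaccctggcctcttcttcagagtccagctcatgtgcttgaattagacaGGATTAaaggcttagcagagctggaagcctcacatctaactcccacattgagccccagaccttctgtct
*Rdh12*, chr12:79208663-79208912, plus strand, rod reductase: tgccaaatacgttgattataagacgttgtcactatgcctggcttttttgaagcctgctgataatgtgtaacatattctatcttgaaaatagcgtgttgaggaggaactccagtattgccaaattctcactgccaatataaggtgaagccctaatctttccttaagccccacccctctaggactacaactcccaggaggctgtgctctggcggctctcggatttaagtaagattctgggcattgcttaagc
*Rlbp1*, chr7:79387028-79387277, minus strand, glial and RPE carrier: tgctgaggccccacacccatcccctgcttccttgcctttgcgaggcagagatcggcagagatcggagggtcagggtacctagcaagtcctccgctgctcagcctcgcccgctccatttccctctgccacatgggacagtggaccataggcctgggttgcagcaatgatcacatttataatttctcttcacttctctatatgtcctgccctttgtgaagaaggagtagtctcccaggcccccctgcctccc
*Rpe65*, chr3:159598931-159599180, plus strand, RPE isomerase: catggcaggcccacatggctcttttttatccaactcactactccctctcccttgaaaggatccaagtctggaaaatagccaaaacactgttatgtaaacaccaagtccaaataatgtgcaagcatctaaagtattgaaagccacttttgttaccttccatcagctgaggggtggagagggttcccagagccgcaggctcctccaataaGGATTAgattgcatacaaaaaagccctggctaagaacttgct

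Levels in the 4 groups were compared on a common scale, CPM after TMM scaling over all 12 libraries, because the deposited values were scaled within each fraction. The members differed in level by several orders of magnitude. Per kilobase of exon, *Rbp3*, the retinoid carrier of the matrix between photoreceptors and RPE, was the highest member in each of the 4 groups, at 3496 ± 90.2 CPM per kilobase in control rods and 937.4 ± 96.3 in control retina (SD, n = 3). In control rods it was followed by *Rdh12* at 362.8 ± 19.2, *Rdh8* at 163.7 ± 9.98, *Rdh11* at 37.4 ± 0.653, *Rlbp1* at 18.9 ± 2.56 and *Rdh10* at 7.86 ± 1.03. *Rpe65* (1.85 ± 1.15), *Rdh5* (1.39 ± 0.893), *Stra6* (0.621 ± 0.384) and *Lrat* (0.497 ± 0.249) came last in control rods, and each overlapped the next in its libraries. In control retina *Rlbp1* came right after *Rbp3*, at 119.7 ± 12.9 CPM per kilobase, with libraries that overlapped those of *Rdh12* (98.4 ± 19.4). In Rodko retina *Rlbp1* (106.1 ± 2.47) lay above *Rdh12* (102.0 ± 1.501) without overlap. The 4 lowest members in control retina were *Rpe65* at 10.5 ± 6.11, *Rdh5* at 4.74 ± 2.85, *Stra6* at 2.68 ± 1.29 and *Lrat* at 2.10 ± 1.28, again with overlapping neighbours.

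**Figure D1:**
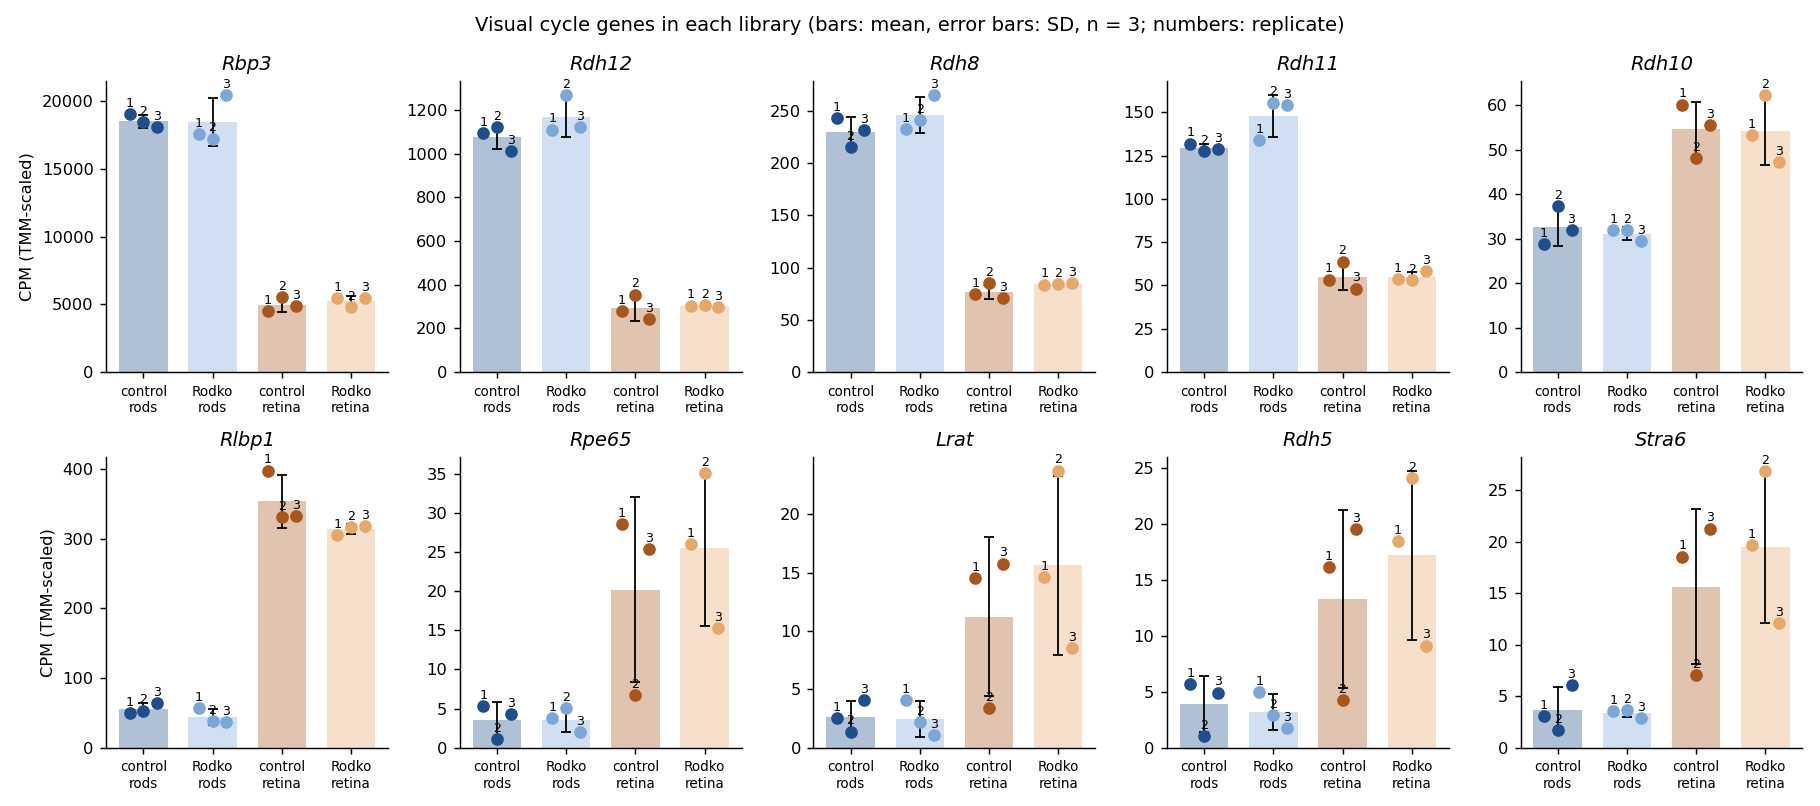
TMM-scaled CPM of each member in the 12 libraries, on a linear axis from 0 for each gene. Bars are group means, error bars SD (n = 3) and points single libraries with their replicate number. *Rbp3*, *Rdh12*, *Rdh8* and *Rdh11* are higher in every rod library than in every retina library, and *Rpe65*, *Lrat*, *Rdh5* and *Stra6* are widely spread among retina libraries, from 6.68 to 35.1 CPM for *Rpe65*.

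*Rdh8*, *Rdh11*, *Rdh12* and *Rbp3*, which reduce or carry retinoids in or around photoreceptors, were higher in rods than in retina, and the other 6 members were lower, in both genotypes. All 10 passed an adjusted p of 0.05 in each genotype (limma, 16115 genes tested). Of all genes tested, 37.4% were called higher and 39.4% lower in control rods, and 38.4% and 39.3% in Rodko rods, so a call in this comparison is common. The sizes ranged widely among those of all genes. The control log2 fold changes of *Rbp3* and *Rdh12* lay above those of 99.8% of all genes tested, that of *Rdh8* above 99.2% and that of *Rdh11* above 96.6%. Among the members lower in rods, *Rlbp1* lay above 4.42% of all genes, *Rpe65* above 10.3%, *Stra6* above 13.5%, *Lrat* above 16.4%, *Rdh5* above 17.5% and *Rdh10* above 31.2%. Rods here are ribosome-bound RNA and retina is total RNA, so the kind of cell and the kind of RNA cannot be told apart. In tissue RNA, fewer cells of a type and less RNA per cell cannot be told apart either.

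*Rdh12* encodes a retinol dehydrogenase of photoreceptor inner segments. It was at 1095, 1122 and 1013 CPM in control rods, 1111, 1270 and 1122 in Rodko rods, 278.9, 354.8 and 241.7 in control retina, and 304.2, 306.2 and 297.6 in Rodko retina (replicates 1, 2 and 3, here and below). Every rod library was far above every retina library. The log2 fold change on the log2(CPM + 1) scale was 1.90 ± 0.11 (SE) in control (limma adjusted p = 6.8e-10) and 1.94 ± 0.11 in Rodko (limma adjusted p = 4.3e-10).

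*Rbp3* was at 19020, 18440 and 18070 CPM in control rods, 17580, 17240 and 20460 in Rodko rods, 4521, 5521 and 4849 in control retina, and 5476, 4794 and 5455 in Rodko retina. The lowest rod library thus lay far above the highest retina library. Rods exceeded retina by 1.90 ± 0.13 on the log2 scale in control and by 1.81 ± 0.13 in Rodko (limma adjusted p = 2.5e-09 and 3.6e-09). The median of the 19 rod markers was 1.91 in control and 1.90 in Rodko, so *Rbp3* and *Rdh12* lay close to it.

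*Rdh8*, which reduces all-trans-retinal in photoreceptor outer segments, was at 243.3, 215.4 and 231.3 CPM in control rods, 232.1, 240.9 and 265.2 in Rodko rods, 74.8, 84.9 and 70.6 in control retina, and 83.7, 83.9 and 85.2 in Rodko retina. The groups of the 2 fractions did not overlap, and the log2 fold change was 1.57 ± 0.08 in control and 1.53 ± 0.08 in Rodko (limma adjusted p = 2.2e-10 and 2.1e-10). *Rdh11*, a retinol dehydrogenase made in several retinal cell types, was at 131.9, 127.5 and 128.6 CPM in control rods, 133.9, 155.6 and 154.3 in Rodko rods, 53.4, 63.8 and 48.2 in control retina, and 53.7, 53.3 and 58.3 in Rodko retina. It too was higher in all rod libraries, by 1.22 ± 0.09 on the log2 scale in control and 1.41 ± 0.09 in Rodko (limma adjusted p = 1.5e-08 and 2.8e-09). *Rdh11* and *Rdh12* are neighbours on chromosome 12 with no protein-coding gene between them. Each rod library was also set against the retina library of the same number and genotype. The labels do not state that these pair, and pairing was inferred from how the libraries deviated together. The rod level as a share of the retina level (the paired share) ran from 316.2% to 418.9% for *Rdh12* and 321.0% to 420.7% for *Rbp3*. It ran from 253.6% to 327.4% for *Rdh8* and 200.0% to 292.0% for *Rdh11*.

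*Rlbp1*, the cellular retinaldehyde-binding protein of RPE and Müller glia, was at 50.1, 53.3 and 64.5 CPM in control rods, 56.7, 37.9 and 36.4 in Rodko rods, 397.8, 330.9 and 332.3 in control retina, and 305.0, 316.5 and 318.6 in Rodko retina. All rod libraries were far below all retina libraries, and the paired share was 11.4% to 19.4%. On the log2 scale rods differed from retina by -2.64 ± 0.14 in control and -2.84 ± 0.14 in Rodko (limma adjusted p = 2.9e-10 and 1.1e-10). All 14 Müller glia markers were lower in rods as well, with a median log2 fold change of -2.71 in control (range -3.58 to -1.04) and -2.89 in Rodko, and 8 of the 14 lay below *Rlbp1* in each genotype. Of the 14 bipolar markers, 8 also lay below *Rlbp1* in each genotype. Control medians were -2.82 for bipolar, -2.80 for ganglion and -2.59 for amacrine markers, so this position was not particular to glia. The summed level of the Müller glia markers was 510.9 to 786.3 CPM in rod libraries and 4083 to 5110 in retina libraries, with none at 0.

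*Rdh10*, a retinol dehydrogenase of RPE and Müller glia, had the smallest difference of the 10 with TMM scaling, though not with total reads or on the deposited values. It was at 28.8, 37.3 and 31.9 CPM in control rods, 31.9, 31.9 and 29.4 in Rodko rods, 60.1, 48.1 and 55.5 in control retina, and 53.3, 62.3 and 47.1 in Rodko retina. The fractions did not overlap, yet the paired share in rods was 48.0% to 77.5%, above that of every other member lower in rods. The log2 fold change was -0.72 ± 0.12 in control and -0.78 ± 0.12 in Rodko (limma adjusted p = 4.3e-05 and 2.1e-05), and all 14 Müller glia markers lay below it in each genotype.

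**Figure D2:**
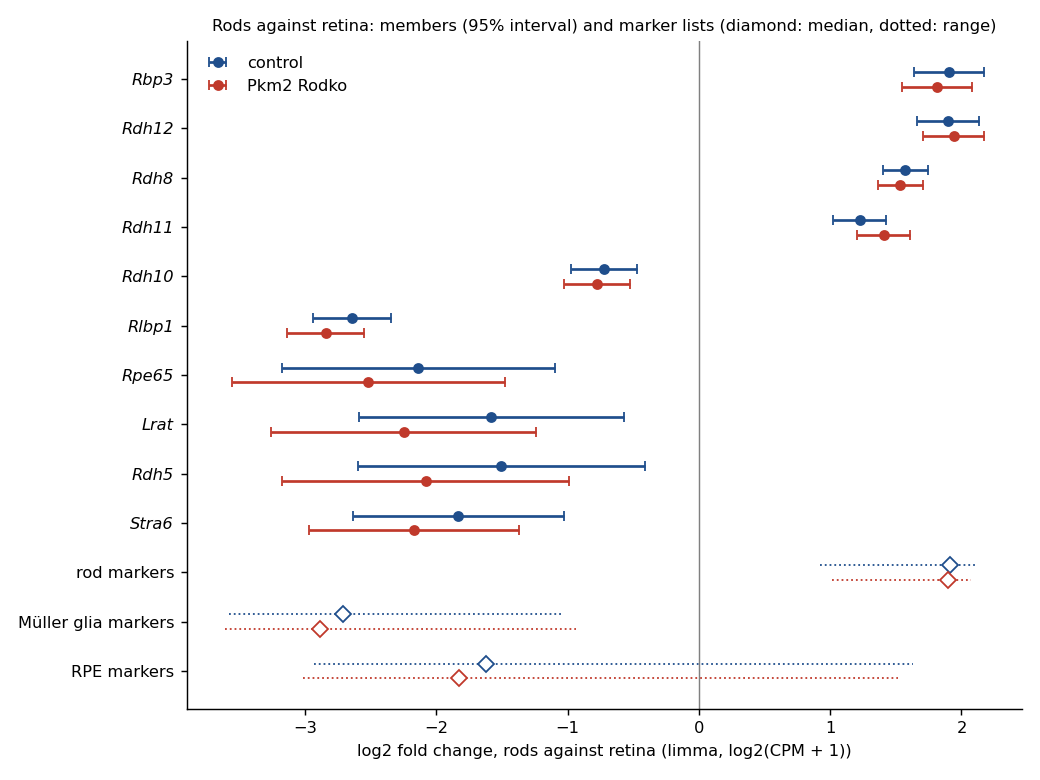
Log2 fold change of rods against retina in control (blue) and *Pkm2* Rodko (red), with points for members, 95% intervals from limma, open diamonds for the median of each marker list and dotted lines for its range. *Rbp3* and *Rdh12* lie near the rod marker median of 1.91, *Rlbp1* near that of Müller glia at -2.71, and the intervals of *Rpe65*, *Lrat*, *Rdh5* and *Stra6* are the widest. Bipolar markers, with a control median of -2.82, are not drawn.

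The 4 members best known from RPE were all lower in rods, with wide intervals in the fit that does not pair libraries. With the replicate number as a block, which pairs rod and retina libraries, their control estimates were the same with smaller p-values. The limma adjusted p was then 1.3e-10 for *Rpe65*, 7.2e-06 for *Lrat*, 4.5e-07 for *Rdh5* and 2.4e-08 for *Stra6*. The values below are from the fit without pairing. *Rpe65*, the isomerohydrolase of the cycle, was at 5.35, 1.08 and 4.32 CPM in control rods, 3.75, 5.04 and 1.95 in Rodko rods, 28.6, 6.68 and 25.4 in control retina, and 26.1, 35.1 and 15.3 in Rodko retina. The fractions did not overlap within a genotype, although control retina 2 lay only just above the highest control rod library. On the log2 scale the change was -2.14 ± 0.49 in control and -2.52 ± 0.49 in Rodko (limma adjusted p = 9.6e-04 and 2.3e-04). The paired share was 12.7% to 18.7%, narrow beside the spread of the levels.

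*Lrat*, which makes the retinyl esters that RPE65 uses, was at 2.54, 1.39 and 4.05 CPM in control rods, 4.11, 2.18 and 1.11 in Rodko rods, 14.6, 3.39 and 15.8 in control retina, and 14.6, 23.8 and 8.56 in Rodko retina. Control retina 2 fell within the range of control rods. Its log2 fold change between fractions was -1.58 ± 0.47 in control and -2.25 ± 0.47 in Rodko (limma adjusted p = 6.8e-03 and 4.8e-04). *Stra6*, the receptor that takes up retinol from its plasma carrier, was at 3.08, 1.70 and 6.08 CPM in control rods, 3.53, 3.69 and 2.90 in Rodko rods, 18.6, 7.08 and 21.3 in control retina, and 19.7, 26.8 and 12.1 in Rodko retina. Its fractions did not overlap, and the log2 fold change was -1.83 ± 0.38 in control and -2.17 ± 0.38 in Rodko (limma adjusted p = 4.0e-04 and 8.2e-05).

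*Rdh5*, which oxidises the cis form of retinol, was at 5.71, 1.03 and 4.93 CPM in control rods, 4.97, 2.93 and 1.78 in Rodko rods, 16.1, 4.29 and 19.5 in control retina, and 18.5, 24.1 and 9.13 in Rodko retina. Control retina 2 again fell within the range of control rods. Its log2 fold change was -1.51 ± 0.51 in control and -2.08 ± 0.51 in Rodko (limma adjusted p = 0.0145 and 1.7e-03). The control call was lost without control rods 2 (-0.98, limma adjusted p = 0.0816), without control retina 1 (-1.26, limma adjusted p = 0.0618) and without control retina 3 (-1.13, limma adjusted p = 0.0771). *Rdh5* shares exon sequence with *Bloc1s1* on the same strand in the GENCODE annotation, and *Bloc1s1* was given 75 to 154 reads in each library against 20 to 572 for *Rdh5*, so how reads were split between them is uncertain. The pseudocount of 1 CPM shrinks the changes of these 4 low genes: by edgeR's quasi-likelihood fit the control log2 fold changes were -2.60 for *Rpe65*, -2.18 for *Stra6*, -2.15 for *Lrat* and -1.87 for *Rdh5*.

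Of the 14 RPE markers, 13 were tested between fractions. In control 11 were lower and 2 higher in rods, *Krt18* and *Clic6*, with a median log2 fold change of -1.62. In Rodko 11 were lower, 1 was higher (*Krt18*) and *Clic6* was not called, with a median of -1.83. The summed level of the 14 was 138.0 to 278.1 CPM in rod libraries and 123.6 to 1054 in retina libraries, with none at 0 in all libraries. Much of the rod sum came from *Krt18*, at 92.45 to 107.0 CPM in rod libraries, and *Clic6*, at 15.46 to 42.18. The overlap of these sums is thus no measure of RPE RNA in rods. The melanin gene *Dct*, for example, was at 3.04 to 46.94 CPM in rod libraries and 21.33 to 356.7 in retina libraries.

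Sign and call of these comparisons did not depend on the scaling, but their size did. The median over all genes was 0.02 with TMM, -0.49 when libraries were scaled by total reads and -0.53 on the deposited values, and the control calls split into 6029 higher and 6350 lower with TMM against 2236 higher and 9616 lower with total reads. With total reads, *Rdh12* was at 1.35, *Rbp3* at 1.35, *Rdh8* at 1.03 and *Rdh11* at 0.68 in control, still above that median, and *Rdh10* was at -1.26, below it and larger in size than *Rdh11* and *Rdh8*.

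The 4 RPE members varied together from library to library, most plainly in retina. There, control 2 was lowest, Rodko 3 came next and Rodko 2 was highest for *Rpe65*, *Lrat*, *Rdh5* and *Stra6*. The highest retina library was above the lowest by 5.26-fold for *Rpe65*, 7.01-fold for *Lrat*, 5.62-fold for *Rdh5* and 3.79-fold for *Stra6*. Over the same libraries *Rlbp1* varied by 1.30-fold, *Rdh10* by 1.32-fold, *Rdh11* by 1.32-fold, *Rdh12* by 1.47-fold, *Rbp3* by 1.22-fold and *Rdh8* by 1.21-fold. In rods, control 2 and Rodko 3 were likewise the lowest pair for *Rpe65*, *Lrat*, *Rdh5* and *Stra6*, with ranges of 3.57-fold (*Stra6*) to 5.54-fold (*Rdh5*). Rodko 3 was the lower of that pair for *Lrat*, and control 2 for the others. The highest rod library was not shared, being control 1 for *Rpe65* and *Rdh5*, Rodko 1 for *Lrat* and control 3 for *Stra6*.

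Most RPE markers shared the low end of this order in retina, and fewer the high end. Control 2 and Rodko 3 were the lowest retina libraries for 12 of the 14 RPE markers, and among the 12 markers ordered in rods for 7. Rodko 2 was the highest retina library for 4 of the 14. *Ttr*, the transthyretin that carries the plasma retinol complex, was at 118.9, 21.8 and 115.4 CPM in control retina and 105.5, 151.0 and 59.9 in Rodko retina, an order at both ends like that of *Rpe65*. *Pmel*, a melanosome protein of RPE and of choroidal melanocytes, was at 55.4, 12.6 and 216.6 CPM in control retina and 81.6, 74.1 and 10.7 in Rodko retina, so that control 3, and not Rodko 2, was highest. *Tyrp1*, a melanin enzyme, was at 54.1, 11.9 and 198.1 in control retina and 74.4, 62.6 and 10.1 in Rodko retina, like *Pmel*. These 3 markers were chosen from the list after their values were seen. The part of RPE tissue in the levels of the 4 members was not tested.

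**Figure D3:**
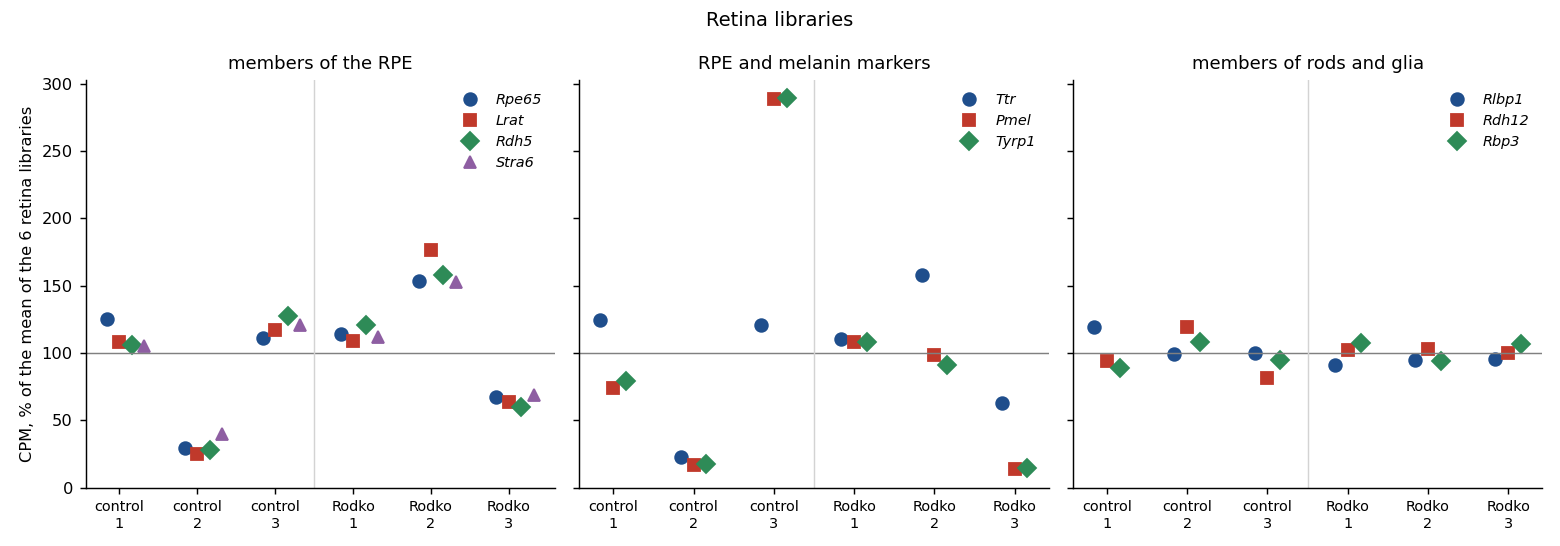
CPM in each of the 6 retina libraries as a percent of their mean, for members of the RPE, for RPE and melanin markers, and for members of rods and glia. *Rpe65* runs from 29.2% in control 2 to 153.7% in Rodko 2, *Pmel* reaches 288.2% in control 3, and *Rlbp1*, *Rdh12* and *Rbp3* stay between 81.3% and 119.4%.

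Over the 12 libraries, the deviations of log2(CPM + 1) from the 4 group means that were most like those of *Rpe65*, among 11839 genes, were those of *Ttr* (Pearson r = 0.976), *Rgr* (0.971), *Tmem98* (0.952), *Rdh5* (0.946) and *Serping1* (0.944). *Rgr* encodes an opsin of RPE and Müller glia. *Lrat* (0.878) and *Stra6* (0.877) followed among the members, while *Rlbp1* (0.236) and *Rdh10* (0.311) were less alike. The most like *Rbp3* among 9786 genes were *Rp1l1* (0.952), *Mfap3* (0.948), *Abca4* (0.938), *Zbtb5* (0.936) and *Zfp316* (0.935). *Rp1l1* and *Abca4* encode photoreceptor outer segment proteins. The most like *Rdh12* were *Ulk4* (0.959), *Cep57l1*, *Nfya*, *Gm14505* and *Gucd1* (0.935), and its neighbour *Rdh11* had r = 0.820. For *Rlbp1* they were *Gtf2a2* (0.965), *Ufc1*, *Gm10131*, *Fundc1* and *Trnp1* (0.924). Libraries of the same number deviate together in the 2 fractions, so the 12 are not independent, and these values are a description with no test.

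Genotypes were then compared within each fraction, on log2(deposited value + 1), to ask whether visual cycle genes differ where rods lose *Pkm2*. No member was called in rods, in retina, or for a difference between the 2 fractions in the genotype effect. The calls over all genes were 0.0194% of 20658 tested in rods, 0.00391% of 25590 in retina and 0% of 16115 for the difference, so calls were rare for any gene. At an unadjusted p of 0.05, 2 of the 10 members passed in rods by limma, by edgeR and by DESeq2, *Rdh11* and *Rlbp1*, against 4.77% of all genes. In retina 0 of 10 passed by any of the 3 tools, against 4.18% of all genes, and for the difference between fractions 0 of 10 passed by limma, edgeR or DESeq2, against 3.4% of all genes by limma. With the replicate number as a block, which pairs the fractions, 1 of 10 passed for that difference, *Rdh5* (-0.57, limma adjusted p = 0.735), against 6.63% of all genes.

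*Rdh11* had deposited values of 1863, 1806 and 1799 in control rods and 1884, 2217 and 2193 in Rodko rods. All 3 Rodko libraries were above all 3 controls, Rodko 1 by little, and *Rdh11* was the 1 member of 10 without overlap in rods, where 9.89% of all genes tested did not overlap. The log2 fold change was 0.20 ± 0.09, with a 95% interval of 0.0045 to 0.39 (limma adjusted p = 0.932). In retina its log2 fold change was 0.02 ± 0.10.

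*Rlbp1* had deposited values of 707.4, 755.1 and 902.1 in control rods and 796.8, 540.2 and 518.0 in Rodko rods. Rodko 2 and Rodko 3 were below every control, and Rodko 1 was within their range. The log2 fold change was -0.37 ± 0.16, with a 95% interval of -0.70 to -0.04 (limma adjusted p = 0.932), and ran from -0.57 to -0.26 when 1 library was left out. In retina *Rlbp1* was at 8415, 7078 and 7098 in control and 6522, 6794 and 6940 in Rodko, all Rodko libraries below all controls. It was the 1 member of 10 without overlap there, where 9.29% of all genes did not overlap, with a log2 fold change of -0.15 ± 0.08 (limma adjusted p = 0.947). Of the 14 Müller glia markers, 13 had a negative genotype value in rods and 13 in retina, with medians of -0.32 and -0.14 beside 0.0060 and -0.0045 over all genes tested, and none was called. Markers of other inner retinal cells were also mostly negative in rods, with medians of -0.42 for bipolar cells (11 of 14 negative), -0.51 for amacrine cells (10 of 11) and -0.40 for ganglion cells (10 of 11), and none was called. The summed level of the Müller glia markers was 617.5 to 786.3 CPM in control rods and 510.9 to 593.7 in Rodko rods. The part of RNA from glia or other cells in the *Rlbp1* values was not tested.

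*Rpe65* had deposited values of 75.6, 15.3 and 60.4 in control rods, 52.7, 71.8 and 27.7 in Rodko rods, 603.9, 142.8 and 542.1 in control retina, and 557.0, 754.2 and 333.9 in Rodko retina. The genotypes overlapped in both fractions. The log2 fold change was 0.18 in rods (95% interval -0.90 to 1.27) and 0.53 in retina (-0.40 to 1.45), with limma adjusted p = 0.969 and 0.947. The retina value was -0.14 without control 2, the 1 of 15 alternatives with a negative sign, and 0.90 without control 1. *Lrat* at 0.66 (-0.37 to 1.68), *Rdh5* at 0.54 (-0.44 to 1.53) and *Stra6* at 0.41 (-0.34 to 1.16) in retina also turned negative without control 2, to -0.06, -0.13 and -0.08. Without both control 2 and Rodko 3, a choice made after seeing the data, the retina values stayed positive. They were then 0.18 for *Rpe65*, 0.31 for *Lrat*, 0.26 for *Rdh5* and 0.22 for *Stra6*, and none was called. In rods *Lrat*, *Rdh5* and *Stra6* were at -0.16 (-1.14 to 0.83), -0.05 (-1.21 to 1.10) and 0.08 (-0.71 to 0.88). Differences within these intervals were not detectable for the 4 RPE members with 3 libraries per group.

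The rod members had narrower intervals. *Rdh8* was at 0.11 in rods (-0.08 to 0.29) and 0.15 in retina (-0.03 to 0.33), *Rdh12* at 0.12 (-0.07 to 0.32) and 0.09 (-0.15 to 0.33), and *Rbp3* at -0.0023 (-0.26 to 0.25) and 0.10 (-0.13 to 0.32). *Rdh10* was at -0.06 in rods (-0.32 to 0.20) and 0.0037 in retina (-0.23 to 0.24). All had a limma adjusted p of 0.932 or more. The difference between the fractions in the genotype effect, with its 95% interval, was -0.38 (-1.85 to 1.09) for *Rpe65*, -0.20 (-0.62 to 0.22) for *Rlbp1* and 0.18 (-0.10 to 0.47) for *Rdh11*. These intervals are from the fit that does not pair rod and retina libraries. With the replicate number as a block, which pairs them, the estimates were the same. The unadjusted limma p was then 0.0606 for *Rpe65* (0.587 without the block) and 0.0582 for *Lrat* (0.334). It was 0.227 for *Rlbp1* (0.319) and 0.124 for *Rdh11* (0.196).

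**Figure D4:**
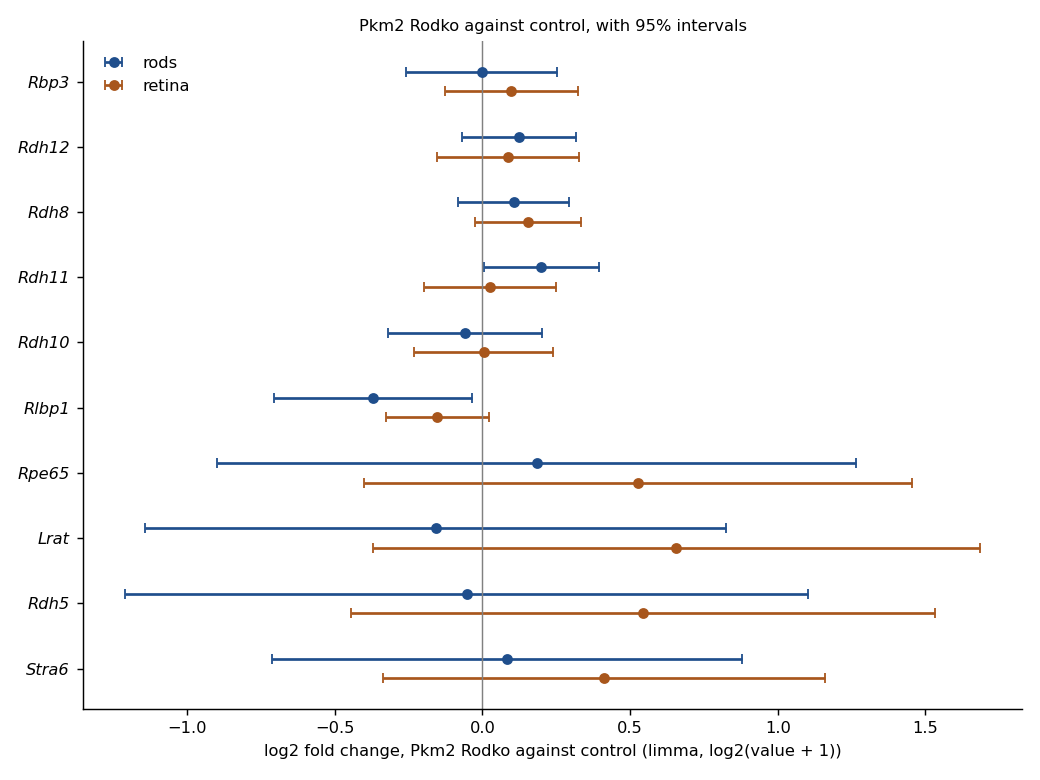
Log2 fold change of *Pkm2* Rodko against control for each member in rods (blue) and retina (brown), on the log2(deposited value + 1) scale with 95% intervals from limma. The interval lies above 0 for *Rdh11* in rods, from 0.0045 to 0.39, and below 0 for *Rlbp1* in rods, from -0.70 to -0.04. All others cross 0, and no member was called after adjustment.

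The other genes of retinoid handling were a list of 41, all in the table, of which 24 were tested between fractions. In control 9 were higher in rods, 13 lower and 2 not called, and in Rodko 10, 13 and 1. Over all genes tested, 37.4% were called higher and 39.4% lower in control, and 38.4% and 39.3% in Rodko. The higher count depends on the scaling: with total reads, *Rdh13*, *Slc27a4* and *Retsat* in control and *Rdh13*, *Slc27a4* and *Degs1* in Rodko had negative values. The cone opsins *Opn1sw* and *Opn1mw* were lower in rods, at -0.69 ± 0.07 and -0.45 ± 0.11 in control (limma adjusted p = 4.3e-07 and 1.9e-03). Of 5 genes tested among those that clear retinal or belong to the same family of reductases, all 5 were higher in rods in both genotypes with TMM scaling. They include *Dhrs3*, a retinal reductase, at 1.48 ± 0.08 in control. *Abca4*, the transporter that removes retinal from outer segment discs, was at 1.42 ± 0.11 in control. When libraries were scaled by total reads, *Rdh13* turned from 0.51 to -0.02 and *Rdh14* fell from 0.61 to 0.08 in control.

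The opsins of RPE, *Rgr* and *Rrh*, were lower in rods in control at -2.29 ± 0.53 and -2.26 ± 0.24, close to *Rpe65* in this comparison. Over the retina libraries *Rrh* ran only from 15.39 to 21.74 CPM. Control 2 was not its lowest retina library, unlike for *Rpe65* and *Rgr*. The carriers *Crabp1* and *Ttr* were lower too, at -2.16 and -2.26. *Aldh1a1*, which makes retinoic acid, had the lowest value of the list, -3.49 ± 0.10 in control and -3.41 ± 0.10 in Rodko. All 4 tested genes of retinoic acid synthesis and breakdown were lower in rods, but the filter can pass a gene on its retina mean alone. The 6 listed genes of this kind summed to 3.461 to 4.534 CPM in rod libraries, of which *Aldh1a1* gave 3.31 to 3.787. The others were thus near the floor in rods, and their direction is no separate result. None of the 41 was called between genotypes by limma. At an unadjusted p of 0.05 limma passed 2 of 31 tested in rods and 0 of 37 in retina, against 4.77% and 4.18% of all genes. The 2 were *Slc27a1* and *Cyp26b1*, the latter at only 0.0752 to 0.5153 CPM in rod libraries. *Slc27a1*, a fatty acid transport protein, had the smallest p of the list in rods (log2 fold change -0.35 ± 0.11, limma adjusted p = 0.932). *Rbp4*, the plasma retinol carrier, had it in retina (-0.93 ± 0.47, limma adjusted p = 0.947), at 0.1575 to 0.7475 CPM in retina libraries.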

How the data were processed

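For 12 libraries the authors deposited a table of 1 signal for each gene and library, namely reads divided by a size factor set within each fraction and rounded to 1 decimal. The submitters' processing notes name CASAVA 1.8.2, HISAT2, DESeq2, edgeR and GRCm39, and how reads were counted, and whether by strand, is not given in the sources used here. Polyadenylated RNA came from tissue frozen after cycloheximide perfusion. Dividing by the value of 1 read gave whole numbers, within 0.06, for 99.9978% of positive values, which served as counts. No 2 replicates differed by as little as sampling noise.

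Genotypes were compared within a fraction by limma 3.58.1 (R 4.3.3) with a variance trend on log2(deposited value + 1), for genes with a mean of at least 1 in 1 genotype. Fractions were compared in 1 limma fit of 4 group means on log2(CPM + 1), with reads scaled by TMM (edgeR 4.0.16) over all 12 libraries and the same minimum, a pseudocount that understates changes of low genes. P-values were adjusted by Benjamini-Hochberg over all genes tested, with a threshold of 0.05. The fits were also run on simulated reads with the same relative spread for every gene and no effects shared by a library. That run does not bear on the 4 RPE members, which varied together between libraries. The alternatives were edgeR and DESeq2 1.42.0 on the reads, other scalings, filters and a pseudocount of 0.1, a replicate block, and each library left out. Same-numbered rod and retina libraries of a genotype deviated together (6 pairs, r = 0.165 to 0.479 over 9580 genes), and their numbers were taken to pair them. Numbers did not pair genotypes (r = -0.362 to 0.164).

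Lengths came from GENCODE exons by identifier, promoters from RefSeq. The members, the lists of markers and retinoid genes and the tests were chosen with earlier results of these data known. Named genes were the 10 members, *Pkm*, and from the retinoid list those called between genotypes, the 3 smallest p in each genotype comparison and the 3 highest and 3 lowest changes between fractions, with the 5 genes most like *Rpe65*, *Rlbp1*, *Rdh12* and *Rbp3* at a mean of at least 5 CPM. Some genes of the lists are not reported here. Other genes are named where a count or a contrast turned on them. Of the 172 list symbols, all were found, 2 under another symbol.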

Additional observations from a re-analysis of the deposited data

How the results depend on the processing

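In each alternative run, all 10 members kept their sign between rods and retina in both genotypes, and no member was called between genotypes. The count of members called was 10 of 10 in both comparisons of fractions in each alternative except those that left out control rods 2, control retina 1 or control retina 3, where *Rdh5* in control was lost. The replicate block gave 10 of 10 members called in each paired comparison of fractions and 0 between genotypes, so it changed no call of a member. Between genotypes the block joined control and Rodko libraries of the same number, which were not found to pair. Its calls there are thus no correction for a pairing. Over all genes it gave 4 higher and 4 lower calls between genotypes in rods, where there were 0 and 4 without it, and 0 calls in retina in place of 1, the call of *Pkm* (limma adjusted p = 0.0219 without the block and 0.157 with it). Leaving out control 2 and Rodko 3 in both fractions, an alternative chosen after seeing the data, also gave 10, 10 and 0, with a control log2 fold change for *Rdh5* of -1.59 (limma adjusted p = 2.1e-05). With the longest transcript as the length, 34 of the 40 positions in the order of members per kilobase stayed, *Rdh5* and *Rpe65* changing places in both rod groups and *Rdh10* and *Rpe65* in Rodko retina. *Rpe65*, *Lrat*, *Rdh5* and *Stra6* were at 1.03 to 6.08 CPM in rods. With 3 libraries per group, these 4 were the least precise in the fits that do not pair libraries.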
